A study of Mus musculus with 12 samples.

Results

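Mitochondrial ribosomal protein genes are described here in tumors of MC38, a mouse colon adenocarcinoma cell line grown in mice, after intravenous injection of BG136 or of vehicle. BG136 is a soluble β-glucan, a polysaccharide recognised by innate immune receptors, purified per the series' title from the seaweed Durvillaea antarctica. The genes were chosen by name alone: a symbol beginning with Mrpl or Mrps and a digit, with pseudogene names left out. This rule gave 78 of the 15170 genes listed, and all 78 passed the filter on low values, so that 78 of the 11356 genes tested belonged to the family. No member passed the test between the groups, and the level of the family as a whole varied from tumor to tumor within both.

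The comparison asks how BG136 given alone alters the tumor transcriptome. The BG136 group had 6 libraries and the vehicle group had 6, all labelled as wild-type MC38 tumor. The labels name no dose, time after injection, host strain, sex or age of the mice, and do not say that each library came from its own animal. Counts of BG136 libraries 7 and 9 differed by less than sampling noise alone would give, so they were not taken as independent. The pair was averaged as 1 sample, which left n = 5 for BG136 and n = 6 for vehicle. Levels are FPKM, fragments per kilobase of transcript scaled to sequencing depth. Differences are on the log2(FPKM + 1) scale, BG136 minus vehicle, which understates the change of low genes.

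The mitochondrial ribosome translates the few messenger RNAs encoded by mitochondrial DNA, all of which code for subunits of the oxidative phosphorylation complexes. Its ribosomal RNA is made inside the organelle. Its proteins are encoded in the nucleus, made in the cytosol and imported. The large subunit, whose genes are named Mrpl, holds the peptidyl transferase centre that joins amino acids. The small subunit, named Mrps, binds the messenger RNA and decodes it. Part of the proteins have bacterial counterparts, and the rest were added in the mitochondrial lineage. The names are older than the structures: the products of Mrps18a and Mrps30 lie in the large subunit. The product of Mrps36 is better known as an adaptor of the α-ketoglutarate dehydrogenase complex than as a ribosomal protein. With these placements, 51 members belonged to the large and 26 to the small subunit, and Mrps36 stood alone. By origin, 46 had a bacterial counterpart, 29 were specific to mitochondria and 2 were vertebrate copies of 1 bacterial family.

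Recovered depth was 14828786 to 18125931 reads in 10 libraries, with 33231037 and 32956232 reads in BG136 libraries 7 and 9. BG136 sample 2 and vehicle samples 11 and 12 stood apart from the others in the members and in short genes generally, so results are given with and without them. The tumors were bulk tissue: of 7 colon epithelial markers measured, Krt8, Krt18 and Vil1 were listed at 0 in at least 1 sample and Vil1 was under 1 FPKM in all, while the 7 together summed to 4.56 to 35.4 FPKM in BG136 samples and 14.3 to 31.6 FPKM in vehicle samples. In such tissue fewer cells of a type and less RNA per cell cannot be told apart.

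The members spanned a 41.2-fold range of levels, and BG136 samples and vehicle samples put them in nearly the same order. Mean levels over all samples ran from 3.58 FPKM for Mrpl14 to 148 FPKM for Mrpl42, with a median of 27.6 FPKM, against 11.2 FPKM over all genes tested. Of the members, 54 lay above 20 FPKM, 4 above 100 FPKM and 10 under 10 FPKM. The level order between samples had a Spearman rho of 0.975 to 0.994 over the 55 pairs of samples, a correlation across genes of a shared table and not across replicates. Within the order, 76 of 77 pairs of neighbouring members had ranges over the samples that overlapped. The exception was Mrps25 above Mrpl1. FPKM divides reads by length, and the length that the deposited values imply differed between the ends of the order. As a percentile of genes tested it was 2.18 for Mrpl42, 5.29 for Mrpl12 and 0.185 for Mrpl52 at the top. It was 87.4 for Mrpl14, 66.8 for Mrpl1 and 79.8 for Mrps25 at the bottom. Mrpl14 had 372 to 881 recovered reads per library and Mrpl42 had 1403 to 3523. What part length has in the order was not tested.

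The large subunit held the extremes of the order. Mrpl42, a mitochondria-specific protein of the large subunit, had the highest mean FPKM of the members. Its level was 118, 168, 143, 128 and 152 FPKM in BG136 samples 1, 2, 4, 6 and the averaged sample of 7 and 9, against a vehicle range of 128 to 173 FPKM with a median of 150.4 FPKM. The groups overlapped over nearly their whole range. Mrpl12 encodes the stalk protein that recruits translation factors to the ribosome. It was at 112, 192, 132, 119.6 and 139 FPKM in the BG136 samples, against 122 to 174 FPKM in vehicle samples with a median of 138 FPKM. The single highest value was BG136 sample 2 and the lowest BG136 sample 1, so that the BG136 samples bracketed all vehicle samples. Mrpl52, another large subunit protein found only in mitochondria, averaged 125.5 ± 22.2 FPKM in BG136 tumors (SD, n = 5) and 129.6 ± 24.8 FPKM in vehicle tumors (SD, n = 6). At the low end stood Mrpl14 and Mrpl1, which belong to universally conserved ribosomal protein families, and Mrps25. Mrpl14 averaged 3.48 ± 0.223 FPKM in BG136 tumors and 3.67 ± 0.804 FPKM in vehicle tumors, Mrpl1 3.92 ± 0.615 FPKM against 3.88 ± 0.464 FPKM, and Mrps25 6.16 ± 0.931 FPKM against 6.27 ± 1.28 FPKM (SD, n = 5 and 6).

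**Figure D1:**
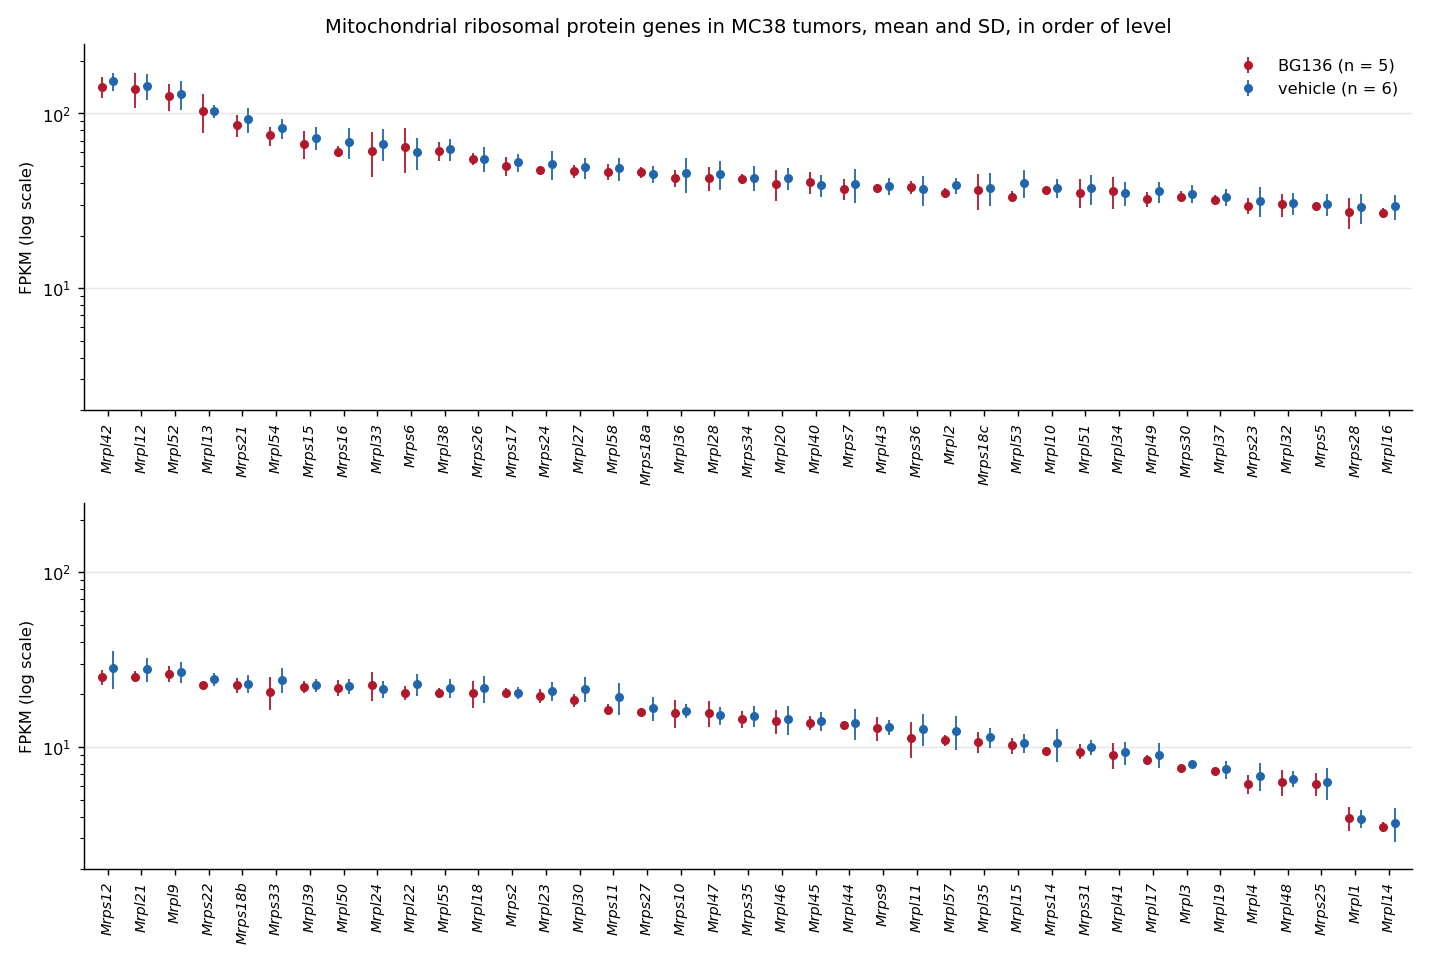
FPKM of the 78 members on a log axis in order of mean level, as group means with SD for BG136 (red, n = 5) and vehicle (blue, n = 6). The 2 means of a gene lie close together at every level from 148 FPKM (Mrpl42) to 3.58 FPKM (Mrpl14).

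The balance between the subunits differed less between the groups than between samples. Members summed to 2368, 3174, 2522, 2443 and 2645 FPKM in the BG136 samples and to 2338, 2470, 2549, 2756, 3368 and 3111 FPKM in vehicle samples 1, 2, 3, 7, 11 and 12. The means were 2630.4 ± 321 FPKM in BG136 tumors (SD, n = 5) and 2765 ± 399.9 FPKM in vehicle tumors (SD, n = 6). Without BG136 sample 2 the BG136 mean was 2494 ± 118 FPKM (SD, n = 4), and without vehicle samples 11 and 12 the vehicle mean was 2528 ± 175 FPKM (SD, n = 4). The ratio of summed large to summed small subunit levels was 2.07 ± 0.046 in BG136 tumors and 2.06 ± 0.056 in vehicle tumors, and all samples lay between 1.98 and 2.14. 

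No member passed the test between BG136 and vehicle tumors. Of the 78 members, 0 passed an adjusted p of 0.05 in limma's moderated test with Benjamini-Hochberg adjustment over all 11356 genes, where 0% of all genes passed. Adjusted p ran from 0.978 to 0.999 over the members. At an unadjusted p under 0.05, 0 of 78 members stood, against 2.05% of all genes. Without BG136 sample 2 it was 6 of 78, against 3.71% of all genes. The groups were free of overlap in 0 of 78 members, against 0.229% of all genes. The 95% confidence interval of every member's difference included 0, and reached a median of 0.22 to either side on the log2 scale.

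Most members had a slightly lower mean in BG136 tumors. Fitted means were lower in 68 members and higher in 10, where 42.6% of all genes were lower. The median difference of the members was -0.061 on the log2 scale, against 0.018 over all genes, and member differences ran from -0.24 to 0.08. This lean depended on whether vehicle samples 11 and 12 were included. Without these samples 21 members were lower and 57 higher, where 45% of all genes were lower, and the median difference was 0.044 against 0.009 over all genes. All 78 differences moved upward when these samples were left out. This follows from the values left out: 78 members were above their own mean in vehicle sample 11 and 76 in vehicle sample 12. Leaving out vehicle sample 11 alone gave 42 of 78 members lower, against 4716 of 11356 genes (41.5%). Leaving out BG136 sample 2 alone gave 77 of 78, against 5320 of 11356 genes (46.8%). With all 3 samples left out, a choice made after seeing the data, 41 of 78 members were lower, against 5508 of 11356 genes (48.5%). The median of the members was then -0.002.

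**Figure D2:**
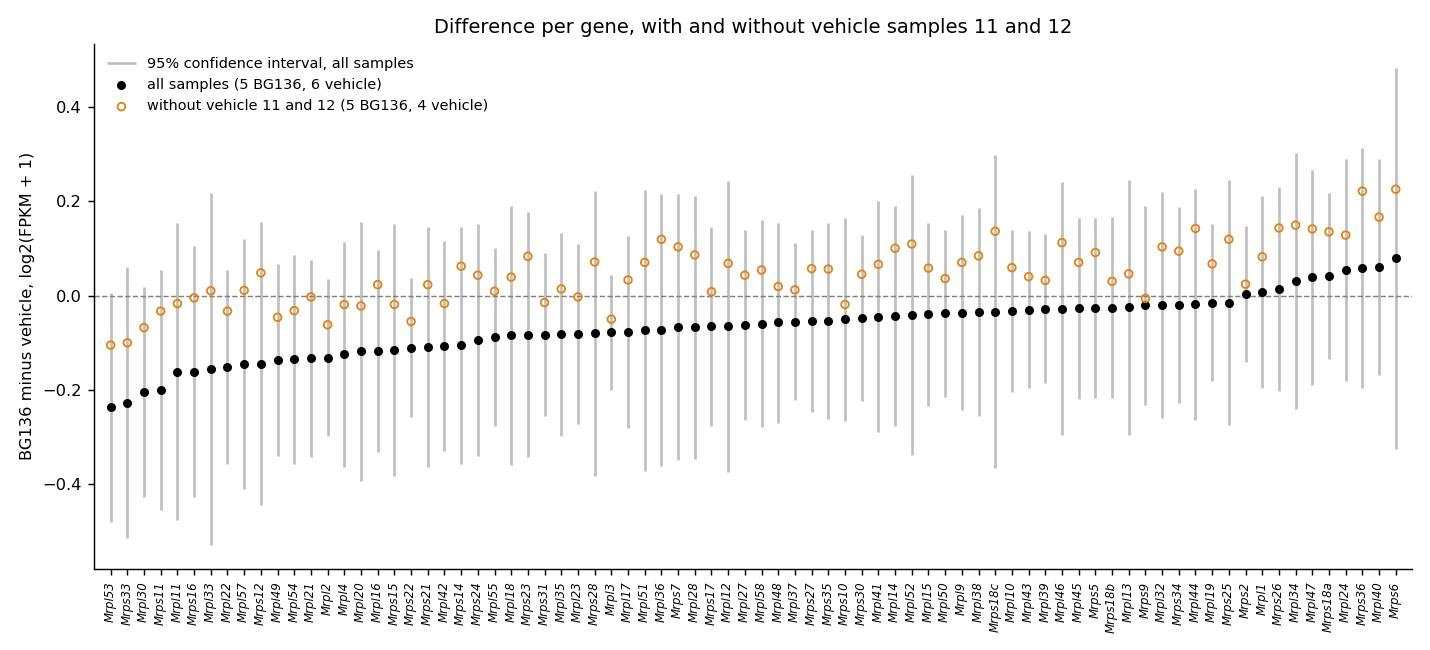
Difference of each member on the log2(FPKM + 1) scale, BG136 minus vehicle, sorted, with its 95% confidence interval over all samples (black points, grey lines) and without vehicle samples 11 and 12 (open orange circles). Every interval spans 0, and every orange circle lies above its black point: 68 black points but 21 orange circles are below 0. The upward move follows from the high values of vehicle samples 11 and 12.

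Both subunits and both classes of origin leaned alike. The difference had a median of -0.060 in the 51 large subunit genes, of which 45 were lower, and of -0.066 in the 26 small subunit genes, of which 23 were lower. Without vehicle samples 11 and 12 the medians were 0.043 in large and 0.045 in small subunit genes, with 13 and 8 genes lower. Genes with a bacterial counterpart had a median of -0.075, with 40 of 46 lower, and mitochondria-specific genes of -0.054, with 27 of 29 lower. Without these samples the medians were 0.041 and 0.054. Lower fitted means stood in 42.6% of all genes, and in 45% without vehicle samples 11 and 12. In each class 0 genes had an unadjusted p under 0.05, against 2.05% of all genes.

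The members moved together from sample to sample, more than they differed between groups. Each gene was set against its own mean over the 11 samples, and the median of the 78 members was then -0.148, 0.179, -0.080, -0.125 and -0.011 on the log2 scale in BG136 samples 1, 2, 4, 6 and the averaged sample. In vehicle samples 1, 2, 3, 7, 11 and 12 it was -0.161, -0.113, -0.080, 0.026, 0.320 and 0.188. BG136 sample 2 and vehicle samples 11 and 12 were high, and the other 8 samples of both groups lay in 1 overlapping band. Of the 78 members, 69 were above their own mean in BG136 sample 2, 78 in vehicle sample 11 and 76 in vehicle sample 12. For 48 members these were the 3 highest of the 11 samples, and for 75 members at least 2 of them were among the 3 highest.

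The highest value of a member fell in BG136 sample 2 for 18 genes, in vehicle sample 11 for 52, in vehicle sample 12 for 7 and in vehicle sample 7 for 1, or 23.1% of the members in BG136 sample 2 and 66.7% in vehicle sample 11. Over all genes tested, BG136 sample 2 held 21.1% and vehicle sample 11 held 22.7% of the highest values. The lowest value fell in BG136 samples 1, 4, 6 and the averaged one for 20, 5, 7 and 2 members, and in vehicle samples 1, 3, 2 and 7 for 29, 8, 4 and 3.

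**Figure D3:**
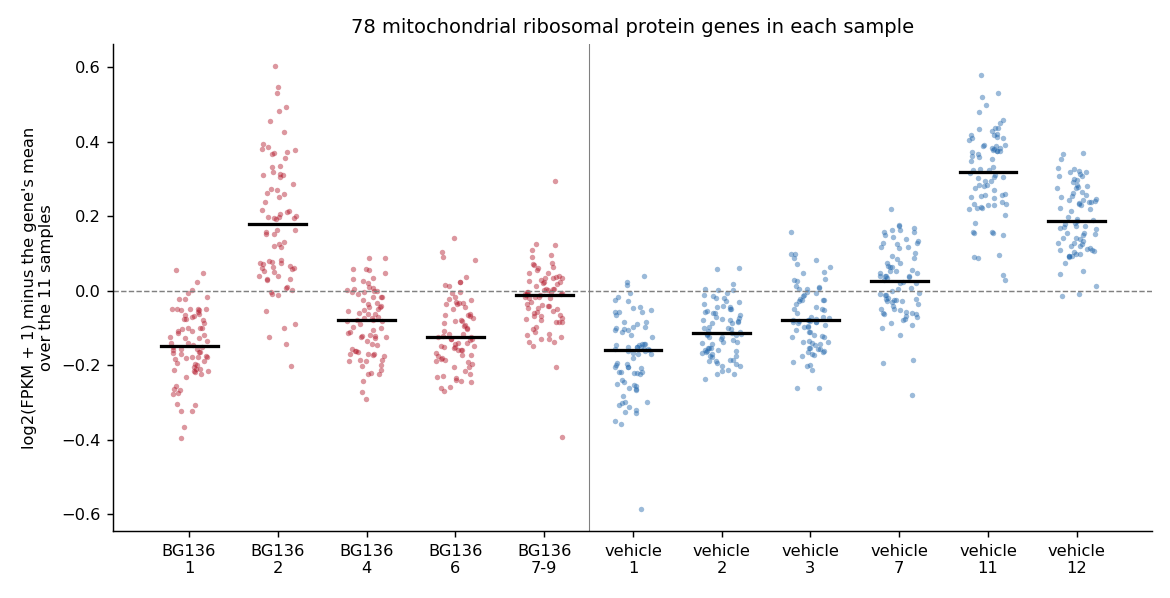
Each point is 1 of the 78 members, as log2(FPKM + 1) minus the gene's mean over the 11 samples. BG136 samples (red) stand left of vehicle samples (blue), and the black bars are medians. The bars of BG136 sample 2 (0.179) and vehicle samples 11 (0.320) and 12 (0.188) lie above those of the other 8 samples, which run from -0.161 to 0.026.

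The spread between samples was larger than counting error in most members. Members had 196 to 4544 recovered reads per library. At their mean reads in vehicle libraries, reads alone would give a median SD of 0.054 on the log2 scale of reads. Observed SDs are on log2(FPKM + 1), which is narrower for low genes, so the match is approximate. The observed SD had a median of 0.140 in BG136 and 0.198 in vehicle samples, and it was above the counting SD in 76 of 78 members in BG136 samples and in 78 of 78 in vehicle samples. The 2 exceptions were Mrpl3 and Mrps14. The ratio of a member's highest to its lowest sample had a median of 1.52 and ran from 1.15 to 2.31. It was under 1.5 for 33 members and above 2 for 1, Mrps6.

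Mrpl3 was the steadiest member. Its product is a conserved protein near the peptidyl transferase centre. Its level was 7.48, 7.47, 7.44, 7.87 and 7.44 FPKM in the BG136 samples, against 7.29 to 8.39 FPKM in vehicle samples with a median of 8.10 FPKM. It was not raised in BG136 sample 2, and the groups overlapped. Mrps2, a conserved protein of the small subunit, was nearly as steady, at 20.5 ± 1.29 FPKM in BG136 tumors and 20.4 ± 1.58 FPKM in vehicle tumors (SD, n = 5 and 6).

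Mrps6 was the most variable member. It encodes a small subunit protein with a bacterial counterpart, and in the GENCODE M21 annotation an exon of it overlaps, on the same strand, one of Slc5a3, an inositol transporter gene, so that reads of the 2 genes may not be fully separated. Mrps6 was at 46.6, 92.2, 52.8, 55.0 and 74.2 FPKM in the BG136 samples, against 39.8 to 73.2 FPKM in vehicle samples with a median of 60.9 FPKM. BG136 sample 2 was the highest and vehicle sample 1 the lowest of all. Its difference of 0.08 (95% confidence interval -0.32 to 0.48) was the highest of the family, and limma's adjusted p was at least 0.978 as for every member. Mrpl33 and Mrps12 followed in range, at 1.92-fold and 1.83-fold between their extreme samples. Mrpl33, a short protein of the large subunit, was at 47.6, 91.3, 51.3, 53.5 and 61.3 FPKM in the BG136 samples, against 50.9 to 85.1 FPKM in vehicle samples with a median of 66.3 FPKM. In the same annotation an exon of Mrpl33 overlaps one of Gm43809 on the same strand, so its reads may not be fully separated either. Mrps12, a protein of the decoding centre, was at 23.2, 28.8, 22.9, 24.0 and 26.9 FPKM in the BG136 samples, against 21.9 to 40.1 FPKM in vehicle samples with a median of 26.1 FPKM. The highest sample was BG136 sample 2 for Mrpl33 and vehicle sample 11 for Mrps12, and the groups overlapped for both.

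Of the 8 members with the smallest p among those lower in BG136 tumors, 5 encode large and 3 small subunit proteins. Mrpl53, a mitochondria-specific protein of the large subunit, had the lowest p of the family. It was at 34.0, 31.6, 31.2, 33.0 and 37.2 FPKM in the BG136 samples, against 29.5 to 49.9 FPKM in vehicle samples with a median of 39.7 FPKM. The BG136 samples lay inside the vehicle range, and BG136 sample 2 was not raised here. The difference was -0.24 (95% confidence interval -0.48 to 0.005, limma adjusted p = 0.978), and -0.105 without vehicle samples 11 and 12. Mrpl30 had 18.2, 20.5, 16.4, 19.2 and 17.9 FPKM in the BG136 samples, against 17.6 to 26.0 FPKM in vehicle samples with a median of 20.3 FPKM. Vehicle samples 11 and 12 were the top of that range, and its difference was -0.20 with them and -0.07 without them.

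Mrps33, a small subunit protein with no bacterial counterpart, was at 20.01, 28.2, 18.9, 19.4 and 16.7 FPKM in the BG136 samples, against 19.0 to 29.96 FPKM in vehicle samples with a median of 23.2 FPKM. Its difference was -0.23 with all samples, -0.100 without vehicle samples 11 and 12, -0.34 without BG136 sample 2 and -0.21 without all 3. Mrps11, a conserved small subunit protein, averaged 16.4 ± 1.12 FPKM in BG136 tumors and 19.3 ± 4.08 FPKM in vehicle tumors (SD, n = 5 and 6), with a difference of -0.20 that was -0.033 without vehicle samples 11 and 12. Mrpl2, which lies at the peptidyl transferase centre, averaged 35.3 ± 2.31 FPKM against 38.9 ± 4.13 FPKM. Mrps22, a mitochondria-specific protein altered in human inherited respiratory chain disease, averaged 22.5 ± 1.03 FPKM against 24.5 ± 2.15 FPKM. Mrpl22, which lines the exit tunnel of the nascent chain, averaged 20.4 ± 1.91 FPKM against 22.9 ± 3.22 FPKM. Mrpl49, a mitochondria-specific large subunit protein, averaged 32.4 ± 3.15 FPKM against 35.8 ± 4.90 FPKM. All 8 had lower means in BG136 tumors with and without vehicle samples 11 and 12, and none passed the test in either case.

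The 10 members with a higher mean in BG136 tumors differed by at most 0.08. By p, they were led by Mrpl40, Mrps18a, Mrpl24, Mrps36, Mrps6, Mrpl47, Mrpl34 and Mrps26. Mrpl40, a mitochondria-specific protein of the large subunit, was at 37.2, 51.0, 39.4, 38.4 and 36.6 FPKM in the BG136 samples, against 32.1 to 47.2 FPKM in vehicle samples with a median of 37.8 FPKM. BG136 sample 2 was the highest of all samples, and the difference was 0.061 with all samples, -0.023 without that sample and 0.17 without vehicle samples 11 and 12. Mrpl24, Mrpl34, Mrpl47, Mrps6, Mrps18a and Mrps26 likewise had a higher mean with BG136 sample 2 and a lower one without it. Without vehicle samples 11 and 12 all 10 had a higher mean in BG136 tumors, and the difference of Mrps6 was 0.23, against 0.08 with all samples. Mrps36, the dehydrogenase adaptor, was an exception: 37.9 ± 3.20 FPKM in BG136 tumors and 36.8 ± 7.22 FPKM in vehicle tumors (SD, n = 5 and 6), a difference of 0.058 that was 0.026 without BG136 sample 2 and 0.22 without vehicle samples 11 and 12. No adjusted p of the 10 was under 0.978 in limma.

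Other members picked for their role had overlapping groups as well. Mrpl58, a peptidyl-tRNA hydrolase built into the large subunit that frees stalled ribosomes, averaged 46.4 ± 5.03 FPKM in BG136 tumors and 48.6 ± 7.32 FPKM in vehicle tumors (SD, n = 5 and 6). Mrpl44, a ribonuclease-like protein whose human gene is mutated in infantile cardiomyopathy, averaged 13.3 ± 0.810 FPKM against 13.7 ± 2.77 FPKM. Mrpl11, at the base of the stalk, was at 10.01, 15.9, 10.01, 9.85 and 10.7 FPKM in the BG136 samples, against 9.80 to 16.7 FPKM in vehicle samples with a median of 12.6 FPKM. Its 3 high samples were the same as those of the family, and the difference of -0.16 was -0.017 without vehicle samples 11 and 12. Mrpl41, a mitochondria-specific large subunit protein, averaged 9.01 ± 1.57 FPKM against 9.30 ± 1.39 FPKM. In the small subunit, Mrps5 averaged 29.5 ± 1.62 FPKM against 30.2 ± 4.34 FPKM, Mrps7 37.1 ± 4.95 FPKM against 39.3 ± 8.46 FPKM and Mrps16 60.4 ± 4.34 FPKM against 68.7 ± 14.0 FPKM. Mrps27, a pentatricopeptide repeat protein of the small subunit, averaged 15.9 ± 0.706 FPKM in BG136 tumors and 16.7 ± 2.58 FPKM in vehicle tumors.

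In the authors' deposited table, which counts 12 libraries, 71 of the 78 members had a log2 fold change below 0 for BG136 over vehicle, against 49.6% of the genes tested here, and the members ran from -0.30 to 0.11. Of the 78 members, 5 had a p under 0.05 in the authors' deposited table, against 4.54% of these genes: Mrpl53, Mrpl30, Mrpl2, Mrps33 and Mrpl3. The deposited q-values of the members ran from 0.838 to 0.997.

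Short genes at large and the members were high in the same samples. The members are short: the length that the deposited values imply put 52 of the 78 in the shortest of 5 equal length groups of genes, and 14, 3, 4 and 5 in the next groups. Among genes outside the mitochondrial ribosomal, cytosolic ribosomal and oxidative phosphorylation families, the median of the shortest group minus that of the longest was -0.190, 0.182, -0.099, -0.189 and -0.068 on the log2 scale in the BG136 samples. In vehicle samples 1, 2, 3, 7, 11 and 12 it was -0.187, -0.124, -0.118, 0.004, 0.537 and 0.294. The same 3 samples were high in short genes at large as in the members. Between treatments, these other genes had median differences of -0.055, -0.013, 0.015, 0.045 and 0.084 from the shortest (2225 genes) to the longest length group (2225 genes). Without vehicle samples 11 and 12 the medians were 0.026, 0.026, 0.013, 0.004 and -0.013. The 52 members of the shortest group had a median difference of -0.066 and the 26 others of -0.052, and 0.047 and 0.034 without vehicle samples 11 and 12. With the trend on length removed in each sample, a step added after seeing the data, 51 members were lower and the median difference was -0.028. Of all genes, 5781 of 11356 were then lower, with a median of -0.001. What part length has in the levels of the members was not tested.

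**Figure D4:**
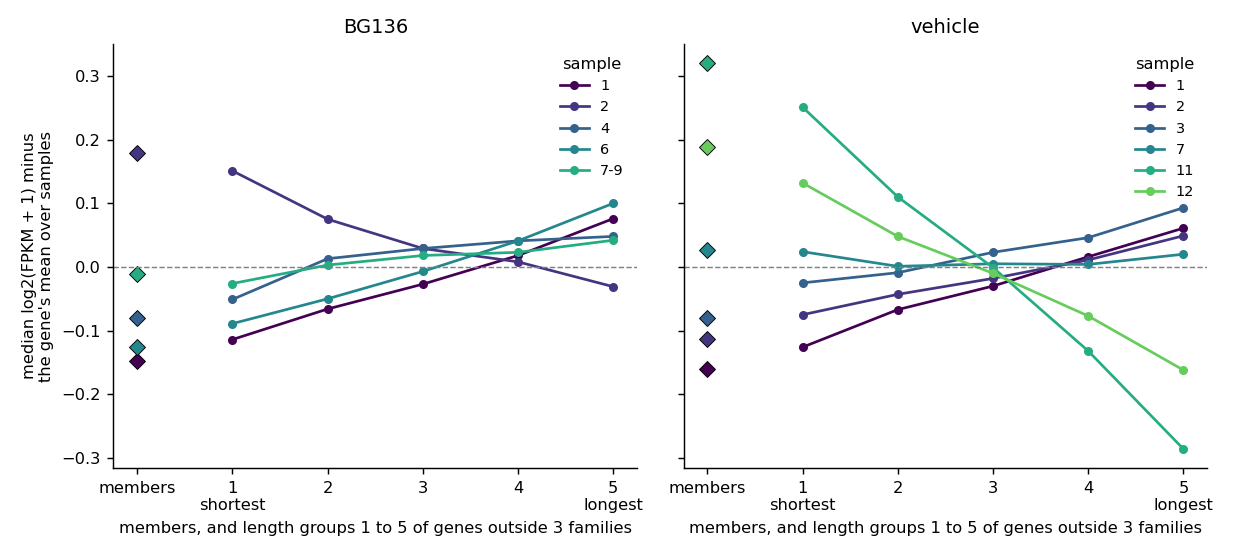
Median of log2(FPKM + 1) minus the gene's mean over the samples, for the members (diamonds) and for 5 length groups of the genes outside the 3 families, shortest to longest (lines), with BG136 samples in the left panel and vehicle samples in the right. Lines of BG136 sample 2 and vehicle samples 11 and 12 fall toward long genes and their diamonds are high (0.179, 0.320 and 0.188), while lines of most other samples rise.

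Markers of other cell types gave mixed values in the 3 high samples. The 10 skeletal muscle markers, of which 7 passed the filter and Ckm, Myh4 and Tnnc2 were listed at 0 in at least 1 sample, summed to 5.21 to 201 FPKM in BG136 samples and 5.65 to 303 FPKM in vehicle samples. BG136 sample 2 had 78.7 FPKM, vehicle sample 11 had 170 FPKM and vehicle sample 12 had 5.77 FPKM, while vehicle sample 3, which was not high in the members, had 303 FPKM. The 8 adipocyte markers summed to 32.3 to 84.0 FPKM in BG136 samples and 88.0 to 166 FPKM in vehicle samples, 2 ranges that did not overlap. BG136 sample 2 had 37.6 FPKM, and vehicle samples 11 and 12 had the 2 highest sums, at 166 and 100.3 FPKM. The 6 macrophage markers summed to 961 to 1559 FPKM in BG136 samples and 998 to 1332 FPKM in vehicle samples, with BG136 sample 2 highest in its group and vehicle sample 11 in its own, while vehicle sample 12 had 1125 FPKM. The 6 T cell markers summed to 32.2 to 115 FPKM in BG136 samples and 61.5 to 98.4 FPKM in vehicle samples, again with BG136 sample 2 and vehicle sample 11 the highest of their groups and vehicle sample 12 at 71.5 FPKM. The 5 erythroid markers summed to 18.8 to 32.5 FPKM in BG136 samples and 19.2 to 43.4 FPKM in vehicle samples, with the same 2 samples highest and vehicle sample 12 at 28.3 FPKM. The 4 endothelial markers summed to 34.1 FPKM in BG136 sample 2, of a BG136 range of 33.4 to 45.6 FPKM. They summed to 31.99 and 32.3 FPKM in vehicle samples 11 and 12, of a vehicle range of 31.99 to 48.9 FPKM. These sums were low in their groups, but BG136 sample 6 and vehicle sample 7, not among the 3 high samples, had 33.4 FPKM each. The 6 fibroblast markers summed to 964 to 1896 FPKM in BG136 samples, with BG136 sample 2 the lowest, and to 1016 to 1502 FPKM in vehicle samples, with 1402 FPKM in vehicle sample 11 and 1292 FPKM in vehicle sample 12. The part of tissue make-up in the members' values was not tested.

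Promoters are printed for some members, picked by their values above or by the motif letters they hold. What part these letters have in the members' levels was not tested. RefSeq start windows of 300 bases, 250 before and 50 after the gene's start, were matched to 69 of the 78 members and come from build GRCm38.p6. NRF1, ETS factors such as GABP, and YY1 are textbook regulators of nuclear genes for mitochondrial proteins. Capitals mark the letters GCATGCGC (NRF1), CCGGAAG (ETS) and AAGATGG (YY1), on either strand. Mrpl53 had the smallest p of the family, Mrpl22 and Mrpl33 hold NRF1 and ETS letters close together, Mrps12 and Mrpl52 hold ETS and YY1 letters, and Mrps6, the most variable member, holds none of these. Each is written 5′ to 3′ on the gene's strand.
Mrpl53 promoter (chr6:83108858-83109157, plus strand): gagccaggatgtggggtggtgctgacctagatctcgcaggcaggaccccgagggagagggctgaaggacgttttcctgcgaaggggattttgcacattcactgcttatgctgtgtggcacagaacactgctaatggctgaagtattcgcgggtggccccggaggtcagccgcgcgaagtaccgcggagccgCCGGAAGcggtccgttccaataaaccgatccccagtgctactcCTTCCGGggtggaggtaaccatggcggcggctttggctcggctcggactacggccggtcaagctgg
Mrpl22 promoter (chr11:58171414-58171713, plus strand): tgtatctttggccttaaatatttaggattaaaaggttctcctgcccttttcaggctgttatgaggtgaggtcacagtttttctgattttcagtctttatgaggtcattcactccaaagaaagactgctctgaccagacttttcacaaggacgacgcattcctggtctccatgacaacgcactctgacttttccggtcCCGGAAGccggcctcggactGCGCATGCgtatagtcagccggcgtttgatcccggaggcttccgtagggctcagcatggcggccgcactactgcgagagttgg
Mrpl33 promoter (chr5:31613701-31614000, plus strand): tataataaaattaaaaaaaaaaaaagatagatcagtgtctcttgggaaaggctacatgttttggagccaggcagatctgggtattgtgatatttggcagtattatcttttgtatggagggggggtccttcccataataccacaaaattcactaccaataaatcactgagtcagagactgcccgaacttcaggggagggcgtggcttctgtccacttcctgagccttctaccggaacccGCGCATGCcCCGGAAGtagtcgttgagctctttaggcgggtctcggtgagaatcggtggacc
Mrps12 promoter (chr7:28741772-28742071, minus strand): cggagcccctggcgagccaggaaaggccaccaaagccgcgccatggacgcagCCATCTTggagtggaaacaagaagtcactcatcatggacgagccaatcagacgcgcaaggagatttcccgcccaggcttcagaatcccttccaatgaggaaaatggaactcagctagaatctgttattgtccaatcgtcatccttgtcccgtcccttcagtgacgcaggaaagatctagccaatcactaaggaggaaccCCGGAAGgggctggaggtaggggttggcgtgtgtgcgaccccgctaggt
Mrpl52 promoter (chr14:54426659-54426958, plus strand): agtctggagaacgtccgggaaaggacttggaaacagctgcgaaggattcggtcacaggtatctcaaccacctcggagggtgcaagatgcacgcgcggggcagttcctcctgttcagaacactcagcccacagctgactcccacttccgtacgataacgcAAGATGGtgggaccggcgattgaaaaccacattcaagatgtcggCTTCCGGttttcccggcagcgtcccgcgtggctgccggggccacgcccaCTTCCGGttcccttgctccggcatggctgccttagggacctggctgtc
Mrps6 promoter (chr16:92058086-92058385, plus strand): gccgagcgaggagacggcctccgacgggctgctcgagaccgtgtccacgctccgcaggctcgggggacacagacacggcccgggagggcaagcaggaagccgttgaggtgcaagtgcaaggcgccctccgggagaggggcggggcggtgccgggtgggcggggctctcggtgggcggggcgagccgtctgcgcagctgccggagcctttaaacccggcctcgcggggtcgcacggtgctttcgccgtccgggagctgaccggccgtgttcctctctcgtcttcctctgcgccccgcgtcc

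The motifs were more frequent near members than near other genes, and these shares are descriptions of letters, not of binding. The NRF1 letters stood in 8 of 69 member windows (11.6%) and 5.74% of the 9119 windows of genes tested. ETS letters stood in 25 (36.2%) against 19.4%, and YY1 letters in 13 (18.8%) against 7.53%. At least 1 of the 3 stood in 37 member windows (53.6%), against 29.4% of all. Longer forms, which contain or overlap the shorter, gave 10.1% against 3.96% for GCGCATGCG, 15.9% against 8.90% for CCGGAAGT and 11.6% against 3.47% for AAGATGGCG. General promoter letters did not stand out: TATAAA was in 5.80% of member windows and 6.90% of all, CCAAT in 39.1% of each, and CACGTG, the E-box read by MYC, in 7.25% against 10.3%. The GC content of the windows had a median of 58.3% in members and 61.0% in all. NRF1 and ETS letters stood together in 4 members, among them Mrpl22 and Mrpl33.

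**Figure D5:**
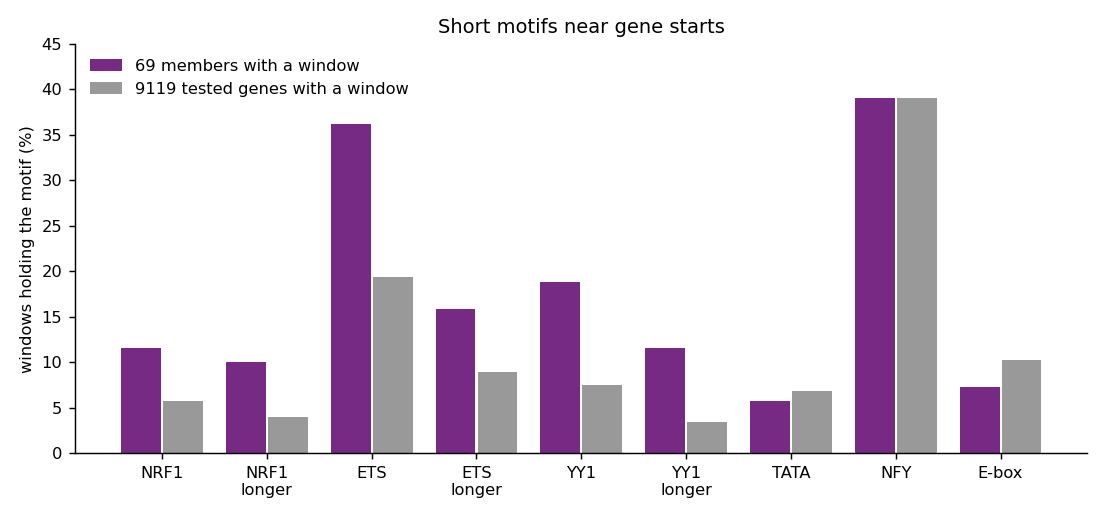
Share of start windows that hold each motif on either strand, for the 69 members with a window (purple) and for the 9119 genes tested with a window (grey), which include the members. Shares for NRF1, ETS and YY1 are higher in members (11.6%, 36.2% and 18.8% against 5.74%, 19.4% and 7.53%), and shares for the TATA box, CCAAT and E-box letters are equal or lower.

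Many members share their start region with a gene on the other strand. In the GENCODE M21 annotation, 33 of 78 members (42.3%) started within 1000 bases of the start of an opposite-strand gene, against 16.8% of 11081 genes tested. Several partners also serve mitochondria: Sars2, a mitochondrial tRNA synthetase, starts 172 bases from Mrps12, Twnk, the replicative helicase, 779 bases from Mrpl43, Ndufs6, of respiratory complex I, 29 bases from Mrpl36, and Ndufb5, of the same complex, 615 bases from Mrpl47. Mrpl46 and Mrps11, of the large and the small subunit, start 412 bases from each other. These partners were picked after their values were seen. Among the partners outside the family with a test, 20 of 27 were lower in BG136 tumors, where 42.6% of all genes were lower. Their median difference was -0.039, against 0.018 over all genes. Without vehicle samples 11 and 12, 18 of 27 were lower, against 45% of all genes. Their median was then -0.022, against 0.009 over all genes. No partner passed limma's adjusted p. Mrps12 averaged 25.2 ± 2.59 FPKM in BG136 tumors and 28.4 ± 7.02 FPKM in vehicle tumors, and its partner Sars2 averaged 6.14 ± 1.35 FPKM against 6.01 ± 0.701 FPKM (SD, n = 5 and 6). Exons of 30 members (38.5%) overlapped those of another gene, against 30% of genes tested, and the sources used here do not give the strand setting of the counting, so values of these members may include reads of the other gene. The 48 members with no such overlap had a median difference of -0.076, and 42 of them were lower, against 42.6% of all genes. Without vehicle samples 11 and 12 their median was 0.028, and 16 were lower, against 45% of all genes.

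The wider machinery of mitochondrial translation was described from lists by role. All 5 ribosomal subunits with other names were lower on average, with a median difference of -0.060, where 42.6% of all genes were lower, and 0 passed limma's adjusted p. Without vehicle samples 11 and 12, where 45% of all genes were lower, 2 of the 5 were lower and the median was 0.032. Dap3, a GTP-binding protein of the small subunit, averaged 13.5 ± 1.31 FPKM in BG136 tumors and 13.7 ± 2.26 FPKM in vehicle tumors, and Ptcd3, which helps to load messenger RNA, 21.6 ± 1.61 FPKM against 22.5 ± 1.12 FPKM. Chchd1 averaged 61.3 ± 7.91 FPKM against 67.0 ± 12.8 FPKM, and Aurkaip1, also of the small subunit, 30.8 ± 4.33 FPKM against 35.1 ± 6.96 FPKM. Gadd45gip1, of the large subunit, averaged 25.2 ± 2.69 FPKM against 26.2 ± 5.17 FPKM.

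Of 14 translation factors tested, 9 were lower and 5 higher, with a median difference of -0.026, and 0 passed limma's adjusted p. The counts were 4 lower and 10 higher without vehicle samples 11 and 12, with a median of 0.041. Of all genes tested, 42.6% were lower, and 45% without these samples. Tufm, the elongation factor that brings charged tRNA, averaged 53.3 ± 3.18 FPKM in BG136 tumors and 60.03 ± 9.66 FPKM in vehicle tumors (SD, n = 5 and 6). Its exchange factor Tsfm averaged 20.7 ± 2.85 FPKM against 21.2 ± 3.79 FPKM, and Gfm1, which moves the ribosome along, 28.1 ± 1.04 FPKM against 28.9 ± 2.06 FPKM. The initiation factor Mtif2 averaged 7.23 ± 0.646 FPKM against 6.71 ± 0.392 FPKM, and Mtif3 2.95 ± 0.418 FPKM against 2.87 ± 0.436 FPKM. The recycling factors Mrrf and Gfm2 averaged 7.55 ± 0.519 FPKM against 8.20 ± 1.41 FPKM and 5.10 ± 0.260 FPKM against 4.92 ± 0.249 FPKM. The release factor Mtrf1l averaged 7.30 ± 0.597 FPKM against 7.46 ± 0.719 FPKM.

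Mitochondrial aminoacyl-tRNA synthetases charge tRNA in the organelle, and their list also held Qrsl1, Gatb and Gatc, which are not synthetases. The list had 9 of 19 tested genes lower, of 20 measured, and a median difference of 0.001. Qrsl1, Gatb and Gatc were among the 9, with differences of -0.031, -0.057 and -0.003. Leaving out vehicle samples 11 and 12 gave 6 lower genes and a median of 0.036. Among all genes tested, 42.6% were lower with these samples and 45% without them. Lars2, the leucyl enzyme, was at 12.2, 12.2, 10.6, 11.3 and 8.80 FPKM in the BG136 samples, against 11.7 to 15.6 FPKM in vehicle samples with a median of 14.5 FPKM. Its ranges overlapped, and its difference was -0.33 (95% confidence interval -0.53 to -0.12, limma adjusted p = 0.978), and -0.26 without vehicle samples 11 and 12. It was the single gene of the 5 lists around the mitochondrial ribosome with an unadjusted p under 0.05. Of all genes, 2.05% had one. Hars2, the histidyl enzyme, had the smallest p of those higher, at 9.97 ± 0.906 FPKM in BG136 tumors and 9.13 ± 0.432 FPKM in vehicle tumors.

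Assembly factors and the enzymes that modify ribosomal RNA had 12 of 17 tested genes lower, of 18 measured, with a median difference of -0.027, and 0 passed limma's adjusted p. Without vehicle samples 11 and 12, 6 were lower and 11 higher, with a median of 0.032. Mrm2, a methyltransferase of the large ribosomal RNA, averaged 4.36 ± 0.426 FPKM in BG136 tumors and 5.32 ± 1.04 FPKM in vehicle tumors. The GTPase Mtg1 averaged 8.04 ± 0.526 FPKM against 7.91 ± 0.723 FPKM, and Tfb1m, a methyltransferase of the small ribosomal RNA, 1.77 ± 0.140 FPKM against 1.801 ± 0.338 FPKM. The list of mitochondrial transcription and messenger RNA genes also held the helicase Twnk and the tRNA processing genes Prorp, Hsd17b10, Trmt10c and Elac2. It had 12 of 20 tested genes lower, of 22 measured, and a median of -0.007, with 0 past limma's adjusted p. With vehicle samples 11 and 12 left out, 10 were lower and 10 higher, with a median of 0.001. Beside both of these lists, 42.6% of all genes were lower, and 45% without these samples. The transcription factor Tfam averaged 9.87 ± 1.11 FPKM against 10.4 ± 1.25 FPKM, and the RNA polymerase Polrmt 13.1 ± 1.40 FPKM against 13.4 ± 0.722 FPKM. Lrpprc, which stabilises mitochondrial messenger RNA, averaged 19.5 ± 0.6246 FPKM against 19.1 ± 0.702 FPKM. Mtpap, the poly(A) polymerase, and Ptcd1 averaged 6.62 ± 0.590 FPKM against 6.02 ± 0.440 FPKM and 8.37 ± 0.679 FPKM against 9.04 ± 0.470 FPKM.

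For comparison, 2 other families of nuclear genes were measured. Of 76 cytosolic ribosomal protein genes 74 had a lower mean, and their median difference of -0.158 was -0.058 without vehicle samples 11 and 12, when 55 were lower. Nuclear oxidative phosphorylation genes, many of whose partners are the products of mitochondrial translation, had a lower mean in 80 of 80 tested, and their median of -0.117 was 0.001 without these samples, when 40 were lower and 40 higher. Over all genes tested, 42.6% were lower, and 45% without these samples. In both families 0 genes passed limma's adjusted p. An unadjusted p under 0.05 stood in 12 of the 76 cytosolic ribosomal genes and 2 of the 80 oxidative phosphorylation genes, against 2.05% of all genes. Whether the families differ from each other was not tested.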

How the data were processed

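RNA of MC38 tumors was profiled in 6 BG136 and 6 vehicle libraries. Per the labels' protocols, libraries were made with a stranded mRNA kit. Per the submitters' processing notes, the tools were Trimmomatic, Cufflinks, HISAT2, DESeq and HTSeq and the build GRCm39, and no source used here gives versions. The table the authors deposited holds FPKM per library, a unit read from the values because the header names it only expression. It also holds group base means, a normalized signal of the authors. Per the file headers it gives BG136 over vehicle as a linear fold (a ratio) and on the log2 scale, each gene with a p-value and a q-value.

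Read numbers were recovered from the FPKM and the deposited base means, and 100% of values above 0 lay within 0.1 of a whole number. They gave each library's depth, a length per gene and the replicate check: BG136 libraries 7 and 9 differed by a chi-square of 0.285 per gene, below sampling noise, against 7.88 to 57.5 in 29 other pairs within groups, so their mean was 1 sample. Whether each sample was its own animal is not said in the labels, and the p-values cover the spread among these samples, which may be technical.

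A gene was kept if 6 or more samples had an FPKM of 1 or more (11356 genes). log2(FPKM + 1) was tested with limma 3.58.1 in R 4.3.3, with a mean-variance trend, two-sided, and p-values were adjusted by Benjamini-Hochberg over all genes kept, at a threshold of 0.05. Scripts ran in Python 3.11.15. The recovery and the fit were tested on simulated data. Alternatives were other scalings (one of them by the members themselves), a pseudocount of 0.1, no filter, all 12 libraries, sample weights, limma's voom on the recovered reads, a replicate block, and samples left out; 3 of these were added after seeing the data.

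Genes named in the text are 15 members picked for their role, the 8 members per direction with the smallest p, the 3 highest and 3 lowest members by level, the 3 with the largest ratio of highest to lowest sample, 17 genes of the other lists picked for their role, and in each of these lists the gene with the smallest p per direction, which added 6. Members and lists were chosen with earlier results of these data known. Of the listed names, 4 were not matched in the table and are not analysed here. GENCODE M21 served only to find neighbouring and overlapping genes. Promoter windows come from RefSeq on another build than the table's.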

Additional observations from a re-analysis of the deposited data

Results flagged for a closer look

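Of 138 groups of values compared within a treatment group by their gap to the nearest other sample, 12 had a sample that stood apart. The rule's rate of about 1 in 20 is for independent values. These groups share samples, their genes moved together and some genes were picked from these data, so the count cannot be set against that rate. BG136 sample 2 was the high one in 9 of the 12 groups. It had 15.9 FPKM of Mrpl11, where the other BG136 samples had 9.85 to 10.7 FPKM, and 68.0 FPKM of Mrps16, where they had 56.9 to 59.6 FPKM. It had 28.2 FPKM of Mrps33 against 16.7 to 20.01 FPKM, 51.0 FPKM of Mrpl40 against 36.6 to 39.4 FPKM and 29.7 FPKM of Mrpl24 against 19.5 to 22.3 FPKM in the other BG136 samples. For Mrpl34 it had 49.4 FPKM against 30.8 to 33.8 FPKM, and for Mrpl52 164 FPKM against 109 to 124.5 FPKM. Outside the family it had 74.9 FPKM of Chchd1 against 54.5 to 60.1 FPKM and 25.6 FPKM of Tsfm against 18.2 to 20.3 FPKM.

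BG136 sample 6 was highest for Mrpl3, at 7.87 FPKM against 7.44 to 7.48 FPKM in the other BG136 samples, and lowest for Lrpprc, at 18.4 FPKM against 19.6 to 19.8 FPKM. Vehicle sample 12 was highest for Mtg1, at 9.36 FPKM against 7.49 to 7.84 FPKM in the other vehicle samples.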

How the results depend on the processing

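The number of members past adjusted p 0.05 was 0 in limma under all 25 alternatives, with a lowest adjusted p of 0.815, and at most 6 members had an unadjusted p under 0.05 (without BG136 sample 2, where 421 of 11356 genes had one). The number of genes past adjusted p 0.05 among all genes tested was likewise 0 under all 25; at an unadjusted p under 0.05 limma had 233 and voom on recovered reads 325. The number of members with a lower mean, 68 with all samples, was 21 without vehicle samples 11 and 12 and 41 without these and BG136 sample 2. Leaving out 1 sample at a time gave 42 to 77, with 42 without vehicle sample 11, and a median difference of the members of -0.117 to -0.006. The median was 0.044 without vehicle samples 11 and 12, against -0.061. Other scalings gave -0.076 (trimmed mean), -0.093 (each library centred on its median) and -0.081 (voom), sample weights gave -0.021, and removing the length trend gave -0.028. Centring each library on the median of the members, chosen after seeing the data, takes out the family's own level by construction: 23 members were lower, with a median of 0.030, while the median of all genes moved to 0.109. Centring moves all genes of a library alike, so the gap between members and all genes is fixed and these sign turns follow from the construction. The medians became 0.065 in translation factors, 0.092 in the synthetase list and 0.084 in the list of transcription and messenger RNA genes.

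No named gene passed the test under any alternative. Of the 34 named members, 12 turned the sign of their difference without vehicle samples 11 and 12, 9 without BG136 sample 2, 9 without vehicle sample 11 and 11 when centred on the members. Samples of the 2 groups numbered 1, 2 and 7 deviated from their group means with correlations of 0.488, -0.422 and 0.26. These are mixed and run across genes, so they do not decide whether the numbers pair the samples. These 6 samples hold BG136 sample 2, which was high in the members, but not the high vehicle samples 11 and 12. Over the 6 samples 10 members were lower and the median was 0.072, where 4770 of 11356 genes were lower. The values are the same with the replicate block and without it. With 1 sample per number and group, a block cannot change a fitted difference. With and without the block 0 members passed. The median turned sign in 4 of the 25 alternatives in the members and in the subunits with other names. It did so in 7 in translation factors and in the transcription list, in 6 in assembly factors and in 14 in the synthetase list. The SD from counting reads had a median of 0.054 in the members, against 0.140 in BG136 and 0.198 in vehicle samples, so the spread between the 11 samples, more than depth, sets the width of the intervals.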
